A study of Mus musculus with 8 samples.

Results

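The comparison set the binding sites of Polr1c against those of Mgea5 at the ends of genes in mouse neural progenitor cells. A gene counted as carrying a protein in a replicate when a peak of that replicate's list touched the window of 1000 bp on either side of its start or its end. Of 33464 protein-coding, lncRNA and tRNA genes of chromosomes 1 to 19, 7 carried Polr1c in both replicates and Mgea5 in neither, 221 carried both proteins in both replicates, and 17648 carried Mgea5 in both replicates and Polr1c in neither. These 3 classes held 17876 genes. A further 63 genes carried Polr1c in both replicates and Mgea5 in 1, which brought the genes with Polr1c in both replicates to 291.

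The study was a chromatin immunoprecipitation and sequencing experiment, which reads the DNA that is crosslinked to a protein. The cells were primary neural progenitors grown from the hippocampus of male C57BL/6 mice, and no genotype, treatment or age of the animals is stated. Of 8 samples, 2 were immunoprecipitates of each of Mgea5, Panx2 and Polr1c, and 2 were input DNA. Nothing in the labels ties the replicates to separate animals or cultures, so that the spread between them may be technical.

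Polr1c is a subunit that RNA polymerase I, which makes ribosomal RNA, shares with RNA polymerase III, which makes tRNAs and other short RNAs. At tRNA genes the promoter lies inside the gene, in elements called the A and B boxes, which recruit TFIIIC and then TFIIIB and the polymerase. Mgea5, whose gene is now named Oga, is the enzyme that removes O-linked N-acetylglucosamine from serines and threonines of nuclear and cytoplasmic proteins. It is not known as a sequence-specific DNA-binding protein, and it acts together with Ogt, the enzyme that adds the sugar.

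The promoters of 5 protein-coding genes that carried both proteins show where Polr1c sat at these genes, which are examples and no sample of the class. Of the 76 such genes with a known start, the highest point of the Polr1c peak lay within 250 bp of one at 34 in replicate 1 and 39 in replicate 2. The sequences come from the RefSeq promoter table of GRCm38.p6, the build the files call mm10. They run from 250 bases before the start of the gene to 50 from it, on the coding strand. Capitals mark the bases that lay inside Polr1c peaks of both replicates. Cenpu (chr8:46551819-46552118, plus strand), which encodes an inner kinetochore protein, had 255 such bases, from the first base printed to just past the start.
Cenpu: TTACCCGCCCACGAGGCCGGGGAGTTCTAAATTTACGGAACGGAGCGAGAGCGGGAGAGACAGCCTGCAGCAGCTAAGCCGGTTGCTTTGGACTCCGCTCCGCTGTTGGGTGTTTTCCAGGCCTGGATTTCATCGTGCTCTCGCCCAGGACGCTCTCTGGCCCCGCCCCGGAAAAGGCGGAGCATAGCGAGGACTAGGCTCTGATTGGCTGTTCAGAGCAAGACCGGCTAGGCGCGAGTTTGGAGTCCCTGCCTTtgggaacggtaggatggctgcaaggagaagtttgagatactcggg
Timm22 (chr11:76406675-76406974, plus strand) encodes the channel of a mitochondrial inner membrane translocase, and 101 bases around its start lay in both peaks. Armc8 (chr9:99568850-99569149, minus strand) encodes a subunit of the CTLH ubiquitin ligase, and 134 bases of it did.
Timm22: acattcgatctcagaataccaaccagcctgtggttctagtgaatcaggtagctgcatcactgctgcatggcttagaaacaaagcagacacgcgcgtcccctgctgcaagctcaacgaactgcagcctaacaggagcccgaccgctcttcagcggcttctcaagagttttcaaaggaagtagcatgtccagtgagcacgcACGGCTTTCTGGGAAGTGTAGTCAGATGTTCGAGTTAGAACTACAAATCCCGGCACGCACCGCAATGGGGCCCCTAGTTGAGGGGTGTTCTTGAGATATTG
Armc8: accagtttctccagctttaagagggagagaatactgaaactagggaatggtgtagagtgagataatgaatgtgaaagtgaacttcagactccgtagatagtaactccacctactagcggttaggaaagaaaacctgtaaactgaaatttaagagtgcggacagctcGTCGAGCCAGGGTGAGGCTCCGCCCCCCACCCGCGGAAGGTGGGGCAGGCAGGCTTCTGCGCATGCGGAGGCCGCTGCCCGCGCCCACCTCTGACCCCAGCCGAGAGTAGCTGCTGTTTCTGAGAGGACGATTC
Setd1a (chr7:127777139-127777438, plus strand) encodes a histone H3 lysine 4 methyltransferase, and 250 bases of it lay in both peaks, all of them before the start. Harbi1 (chr2:91710602-91710901, plus strand), a gene derived from a transposase, starts back to back with the autophagy gene Atg13. Both genes share the peak pair that covered 286 bases.
Setd1a: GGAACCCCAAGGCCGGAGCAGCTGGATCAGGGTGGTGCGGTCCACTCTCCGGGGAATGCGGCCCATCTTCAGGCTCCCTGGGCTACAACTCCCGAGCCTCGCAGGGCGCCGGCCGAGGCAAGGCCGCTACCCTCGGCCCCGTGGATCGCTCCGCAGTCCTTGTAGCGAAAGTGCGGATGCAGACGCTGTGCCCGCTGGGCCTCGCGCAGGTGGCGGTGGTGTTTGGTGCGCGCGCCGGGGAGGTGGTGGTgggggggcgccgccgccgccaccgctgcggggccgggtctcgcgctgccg
Harbi1: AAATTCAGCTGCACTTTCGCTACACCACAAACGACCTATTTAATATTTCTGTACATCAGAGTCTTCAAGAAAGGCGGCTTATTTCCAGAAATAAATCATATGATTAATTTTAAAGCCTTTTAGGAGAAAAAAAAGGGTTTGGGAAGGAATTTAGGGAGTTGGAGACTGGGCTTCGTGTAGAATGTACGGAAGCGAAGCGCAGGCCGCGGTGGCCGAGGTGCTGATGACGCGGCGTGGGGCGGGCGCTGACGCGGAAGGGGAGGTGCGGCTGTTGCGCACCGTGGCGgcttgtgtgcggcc

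For comparison, 2 promoters of genes with Mgea5 in both replicates and no Polr1c peak follow, with capitals for the bases inside Mgea5 peaks of both replicates. Atg14 (chr14:47568385-47568684, minus strand) encodes a subunit of the autophagy lipid kinase complex, and 162 bases lay in both Mgea5 peaks. Lrrc47 (chr4:154011553-154011852, plus strand) had 181 such bases.
Atg14: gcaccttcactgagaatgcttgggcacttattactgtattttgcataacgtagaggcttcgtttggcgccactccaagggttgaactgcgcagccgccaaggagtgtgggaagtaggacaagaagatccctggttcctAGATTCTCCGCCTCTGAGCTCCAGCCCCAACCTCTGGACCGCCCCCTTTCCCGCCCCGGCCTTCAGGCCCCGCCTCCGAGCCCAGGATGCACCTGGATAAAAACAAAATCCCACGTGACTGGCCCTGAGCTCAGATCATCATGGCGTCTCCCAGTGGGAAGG
Lrrc47: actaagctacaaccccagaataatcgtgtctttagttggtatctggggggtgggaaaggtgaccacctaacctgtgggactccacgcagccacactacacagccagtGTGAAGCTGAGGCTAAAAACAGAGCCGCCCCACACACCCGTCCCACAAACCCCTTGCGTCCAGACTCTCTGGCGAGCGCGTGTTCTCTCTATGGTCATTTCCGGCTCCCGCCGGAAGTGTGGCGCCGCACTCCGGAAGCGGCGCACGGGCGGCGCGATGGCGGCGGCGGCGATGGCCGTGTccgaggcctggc

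The lists differed in length by orders of magnitude. Polr1c replicate 1 held 760 peaks on these chromosomes and covered 0.284 Mb, and Polr1c replicate 2 held 35324 peaks and covered 7.62 Mb. The Mgea5 lists held 529967 and 516979 peaks and covered 352 and 275 Mb. The q value, which the authors' peak caller adjusted for the number of sites tested, was 1 for 97.4% and 97.7% of the Mgea5 peaks and for 65.0% and 28.8% of the Polr1c peaks. Only 106 peaks in each Mgea5 list had a q of at most 0.01, against 212 and 1284 in the Polr1c lists. The peak names place Polr1c replicate 2 and both Mgea5 lists in one calling run and Polr1c replicate 1 in another, so Polr1c replicate 2 with both Mgea5 lists gives the values within a run. The lists hold no read totals, so the depth behind each peak is unknown.

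Polr1c peaks in both replicates were rare at all genes but those for tRNAs. Polr1c was present in both replicates at 114 of 20665 protein-coding genes (0.552%), 41 of 12408 lncRNA genes (0.33%) and 136 of 391 tRNA genes (34.8%). The short replicate 1 list set these counts at protein-coding and lncRNA genes. Taken by itself, replicate 1 had a peak at 130 protein-coding, 50 lncRNA and 155 tRNA genes. Replicate 2 had one at 3798 (18.4%), 1388 and 199. Mgea5 was present in both replicates at 67.4% of protein-coding genes, 63.6% of lncRNA genes and 53.5% of tRNA genes. No Mgea5 list reached 8.97% of protein-coding genes, 9.07% of lncRNA genes and 12.0% of tRNA genes. Of 155 protein-coding and lncRNA genes with Polr1c in both replicates, 0 were free of Mgea5 peaks. An approximate bound of 3 counts in 155 allows a share of up to 1.94% under this definition. It treats genes as independent, although neighbours share peaks. All 7 genes with Polr1c and no Mgea5 peak encoded tRNAs. They were 5.15% of the tRNA genes with Polr1c in both replicates, below the 12.0% of all tRNA genes. Within the calling run, where Polr1c replicate 2 alone decided, the genes with Polr1c and no Mgea5 peak numbered 69, of which 35 were protein-coding, 23 lncRNA and 11 tRNA genes.

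The 7 tRNA genes lay at 5 loci, 3 of them on chromosome 11. The fold of a peak, given here and below, is the authors' enrichment of the immunoprecipitate over a control that the sources used here do not name, and only folds of one list are compared. The threonine tRNA gene n-TTtgt2 (chr11:48853619-48853691) had Polr1c folds of 4.96 and 3.74 in replicates 1 and 2, with q values of 0.00122 and 8.25e-06. Both summits, the highest points of the peaks, fell inside the gene. The proline, valine and leucine tRNA genes n-TPtgg4 (chr11:48856280-48856351), n-TVaac7 (chr11:48856637-48856709) and n-TLaag6 (chr11:48856974-48857055) shared 1 pair of Polr1c peaks, with folds of 5.35 and 3.02. Its summits lay 11 bp from n-TVaac7 and inside it, and at least 275 bp from the other two.

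The tryptophan tRNA gene n-TWcca7 (chr11:69041826-69041897) had folds of 3.90 and 3.30, with the summits 745 and 816 bp away. The proline tRNA gene n-TPagg3 (chr13:23436994-23437065) had the highest folds of the 7, 6.82 and 4.73, but the peaks of its 2 replicates did not overlap and their summits were 1792 bp apart. The histidine tRNA gene n-THgtg4 (chr2:122375494-122375565) had folds of 5.95 and 3.34, with the summits 18 bp away and inside the gene. Polr1c summits of both replicates thus lay in the gene or within 18 bp of it at 3 of the 7, n-TTtgt2, n-TVaac7 and n-THgtg4. Reads from near-identical tRNA genes can align to more than 1 copy, and how such reads were treated is not given in the sources used here.

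Several of the 7 were just outside the limit of 1000 bp. The nearest peak of Mgea5 replicate 1 was 1021 bp from the end of n-TTtgt2 and 1036 bp from that of n-TPtgg4, and the same peak, of fold 1.59, lay 1393 and 1730 bp from n-TVaac7 and n-TLaag6. It was 1347 bp from n-TWcca7, 1236 bp from n-TPagg3 and 4424 bp from n-THgtg4. Mgea5 replicate 2 was farther away at 6 of the 7, between 4257 and 11429 bp, and 2346 bp from n-THgtg4. Just inside the limit, n-TWcca6 (chr11:69063495-69063566), with Polr1c folds of 10.6 and 2.45, was 992 bp from its only Mgea5 peak. With a window of 2500 bp the count of such genes fell to 0, and with 500 bp it was 23. When genes that share Polr1c peaks were counted once, with any Mgea5 peak at any of them, 2 loci were left, those of n-TTtgt2 and of the trio around n-TVaac7. The peaks at n-TWcca7, n-TPagg3 and n-THgtg4 were shared with genes that had Mgea5 replicate 1 or 2 within the window, such as n-TPcgg3, n-TAcgc10 and Gm39918. The plot of distances shows the peaks of both replicates.

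**Figure D1:**
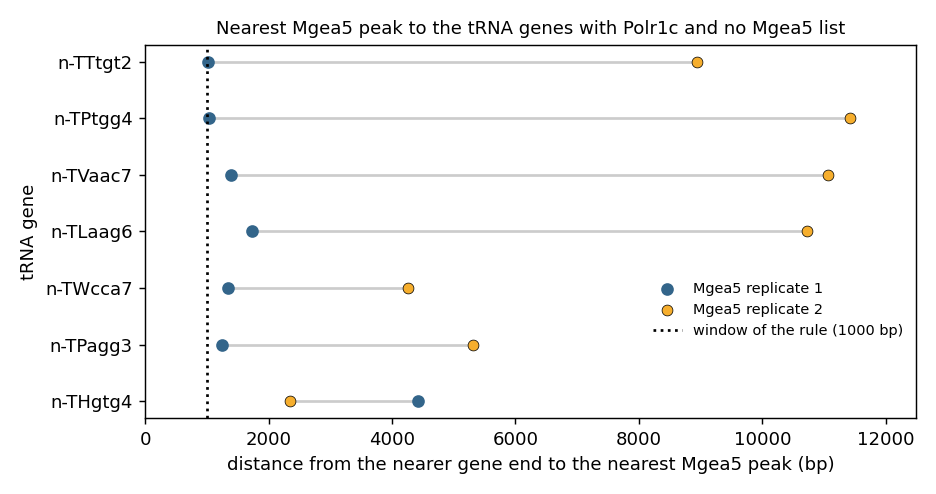
Distance in bp from the nearer end of each of the 7 tRNA genes with Polr1c in both replicates and no Mgea5 list to the nearest peak of Mgea5 replicate 1 (blue) and replicate 2 (yellow), with a dotted line at the window of 1000 bp. Replicate 1 peaks lie between 1021 and 1730 bp for 6 genes and at 4424 bp for n-THgtg4, the one gene whose replicate 2 peak is nearer, at 2346 bp.

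A further 14 protein-coding and 9 lncRNA genes carried Polr1c in both replicates and Mgea5 in 1, of which 11 and 5 had it in replicate 1. They differed in strength. Atp5l, which encodes a subunit of the mitochondrial ATP synthase, had Polr1c folds of 14.4 and 6.00 and a Mgea5 replicate 2 fold of 1.74, while the nearest replicate 1 peak lay 1187 bp away. Syt7, a calcium sensor of vesicle release, had Polr1c folds of 7.60 and 10.8 and a Mgea5 replicate 1 fold of 1.75, with replicate 2 at 1072 bp. Tmem121b had Polr1c folds of 9.43 and 10.6 and the highest Mgea5 fold of these genes, 2.15 in replicate 1, with the nearest replicate 2 peak 3079 bp away.

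Coasy, whose product completes the synthesis of coenzyme A, had Polr1c folds of 5.08 and 6.31, Lamb2, a laminin chain, 4.21 and 2.60, and Psma3, a proteasome subunit, 6.53 and 6.45. Fcor, whose product binds the factor Foxo1, stood higher, at 9.72 and 8.76. The other protein-coding genes were Slc35e4, Ctc1, AW549877, Lnpep, Plch1, Ccdc28b and Bcl7c. Among the lncRNA genes, Gm26721 had the highest Polr1c folds, 10.3 and 12.9, with Mgea5 replicate 1 at 1018 bp. Mir9-3hg, the host gene of a miR-9 precursor, had Polr1c folds of 4.50 and 2.59 and a Mgea5 replicate 1 fold of 1.62, with replicate 2 at 1224 bp. The others were LOC115487419, 6330415G19Rik, Gm39918, Gm52862, Gm30437, Gm34755 and LOC115490435. The 40 tRNA genes of this kind had Polr1c folds of 4.29 to 10.6 in replicate 1 and 1.88 to 6.45 in replicate 2.

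Genes with Polr1c carried Mgea5 more often than genes without it. Mgea5 was in both replicates at 100 of 114 protein-coding genes with Polr1c in both replicates (87.7%, exact Clopper-Pearson 95% interval 80.3 to 93.1%), against 63.9% of the 16851 with no Polr1c peak. The shares were 78.0% (62.4 to 89.4%) and 61.9% for lncRNA genes, and 65.4% (56.8 to 73.4%) and 38.7% for tRNA genes. The intervals cover counting error only and treat genes as independent, although neighbours share peaks. Within the calling run the shares with Polr1c were 83.0% of 3798 protein-coding genes, 76.9% of 1388 lncRNA genes and 66.8% of 199 tRNA genes. These shares rest on Mgea5 peaks of low fold: with only Mgea5 peaks of a fold of at least 2, 8 genes of all types carried both proteins and 355 Mgea5 only. Neither the replicates nor the run could give a test, since peak presence is a single value per list.

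**Figure D2:**
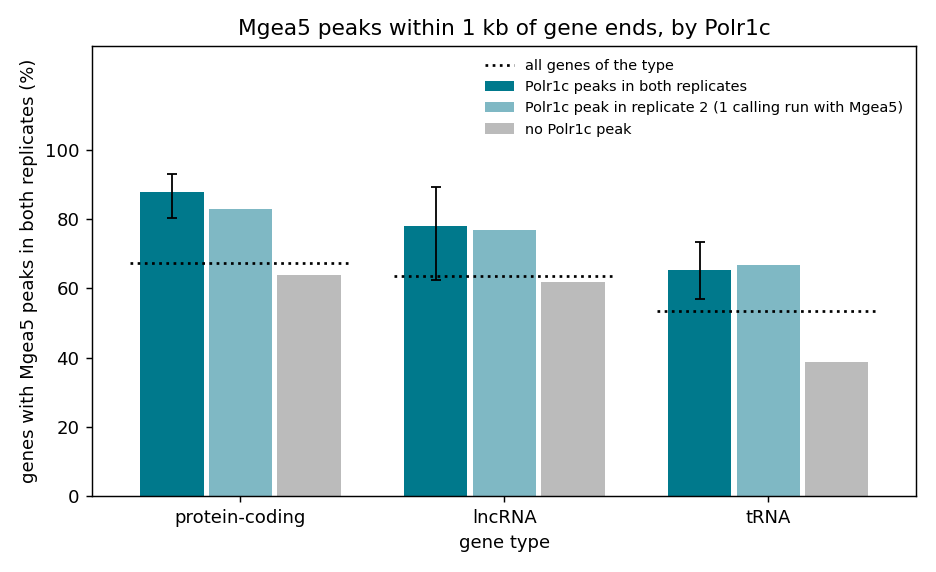
Percentage of genes with Mgea5 peaks of both replicates within 1 kb of an end, by gene type and by Polr1c. Dark bars are genes with Polr1c in both replicates, with exact 95% intervals, light bars genes with Polr1c replicate 2, grey bars genes with no Polr1c peak, and dotted lines all genes of the type, at 67.4, 63.6 and 53.5%. In each type the Polr1c bars stand above the grey bar and the dotted line.

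The windows of a tRNA gene's 2 ends overlap almost fully and those of a long gene do not, so the width searched differs between the gene types. With each gene end taken on its own, Mgea5 was in both replicates at 71 of 115 protein-coding ends with Polr1c in both replicates (61.7%), 29 of 47 lncRNA ends (61.7%) and 172 of 272 tRNA ends (63.2%). All ends of those types stood at 40.1, 36.0 and 51.3%. Panx2, which is no part of the rule, was present at protein-coding genes in replicate 2 at 95.6% with Polr1c in both replicates against 81.8% with no Polr1c peak, and in replicate 1 at 30.7% against 24.8%. At tRNA genes the shares were 55.1% against 55.5% in replicate 2, and 28.7% against 13.9% in replicate 1.

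At protein-coding genes the share with Mgea5 did not climb with the strength of Polr1c. Of protein-coding genes whose strongest Polr1c replicate 2 peak had a fold below 2, 65 of 69 carried Mgea5 in both replicates (94.2%). The share was 82.4% for folds of 2 to 3, 83.5% for 3 to 5 and 83.6% for 5 and above. Over the same 4 bins the share was 63.6, 76.4, 78.3 and 74.1% of lncRNA genes. At tRNA genes it was 0 of 2, 74.0% of 50, 62.8% of 129 and 83.3% of 18, the highest in the strongest bin. At protein-coding genes the median Mgea5 replicate 1 fold in these bins was 1.80, 1.81, 1.84 and 1.77. Polr1c replicate 1 had a peak at 0.571% of the protein-coding genes in the bin of 2 to 3 and at 46.7% of those at 5 and above.

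The strongest protein-coding genes with both proteins encoded chromatin, splicing, autophagy and mitochondrial import proteins, among others. Eps15, an adaptor of clathrin-mediated endocytosis, had Polr1c folds of 11.5 and 30.1 and Mgea5 folds of 1.75 and 1.82. Cenpu had Polr1c folds of 22.8 and 12.4 at the promoter printed above, and Mgea5 folds of 1.73 and 1.76 from peaks at the other end of the gene. A fold is that of the strongest peak in either window, so the proteins can be at opposite ends. Both ranked first by Polr1c in 1 list, while Mgea5 stood near its own median of 1.78 and 1.74 over the class.

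Smarce1, a subunit of the SWI/SNF chromatin remodeller, had Polr1c folds of 10.7 and 21.6 and Mgea5 folds of 1.84 and 1.79. Ints10, a subunit of the Integrator complex that cleaves nascent RNA, had Polr1c folds of 15.2 and 14.3 and Mgea5 folds of 1.90 and 1.65, the latter at the other end of the gene. Armc8 had Polr1c folds of 14.7 and 12.2 and Mgea5 folds of 1.92 and 1.92. Both Mgea5 peaks lay mostly inside the gene and met the promoter printed above only around and after its start. Setd1a stood at 12.9 and 11.5 for Polr1c and at 1.70 and 2.40 for Mgea5, where the replicate 2 peak of that fold lay at the other end of the gene.

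Sfswap, a regulator of splicing, had Polr1c folds of 6.50 and 10.8 and the highest Mgea5 folds of the 10 leading genes, 2.40 and 3.24. Timm22 had Polr1c folds of 16.4 and 12.6 and Mgea5 folds of 1.45 and 1.82. Atg13, which starts autophagy, and Harbi1 shared Polr1c folds of 14.7 and 11.8 and Mgea5 folds of 1.86 and 1.59. Among lncRNA genes, Gm40225 shared its peaks with Eps15 and Gm40332 with Sfswap. Gm52789 had Polr1c folds of 10.3 and 8.68, 2700046G09Rik 4.21 and 19.5, and Gm30934 14.4 and 6.00, with Mgea5 folds between 1.55 and 1.86.

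The strongest tRNA genes with both proteins had lower Polr1c folds in replicate 2. The leucine tRNA gene n-TLcag10 (chr13:23453432-23453514) had Polr1c folds of 8.27 and 5.67 and Mgea5 folds of 1.998 and 1.75. The phenylalanine and asparagine tRNA genes n-TFgaa3 and n-TNgtt7 on chromosome 10 shared Polr1c folds of 7.40 and 3.48 and Mgea5 folds of 2.42 and 2.46. The alanine and lysine tRNA genes n-TAtgc9 and n-TKctt10 on chromosome 11 shared Polr1c folds of 9.14 and 4.80 and Mgea5 folds of 1.63 and 1.80.

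Over the classes, the Polr1c fold of genes with both proteins was 6.10 and 6.86 at the median of protein-coding genes, 5.37 and 4.41 of lncRNA genes and 5.66 and 3.87 of tRNA genes. The 7 tRNA genes without Mgea5 stood at 5.35 and 3.30, inside the range of the tRNA genes with Mgea5, 2.47 to 10.6 and 2.13 to 5.67. Because Polr1c chose the members, these values describe them and are no comparison with other genes. At protein-coding genes the Mgea5 fold had a median of 1.78 and 1.74 with both proteins, 1.78 and 1.73 with Mgea5 only, and 1.78 and 1.73 over all genes with a peak. At tRNA genes it was lower with both proteins, 1.70 and 1.58, than with Mgea5 only, 1.74 and 1.72. At lncRNA genes it was 1.75 and 1.75 with both proteins and 1.77 and 1.74 with Mgea5 only. The widest Mgea5 peak at protein-coding genes was 1239 and 855.5 bp at the median with both proteins, and 1056 and 649 bp with Mgea5 only.

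**Figure D3:**
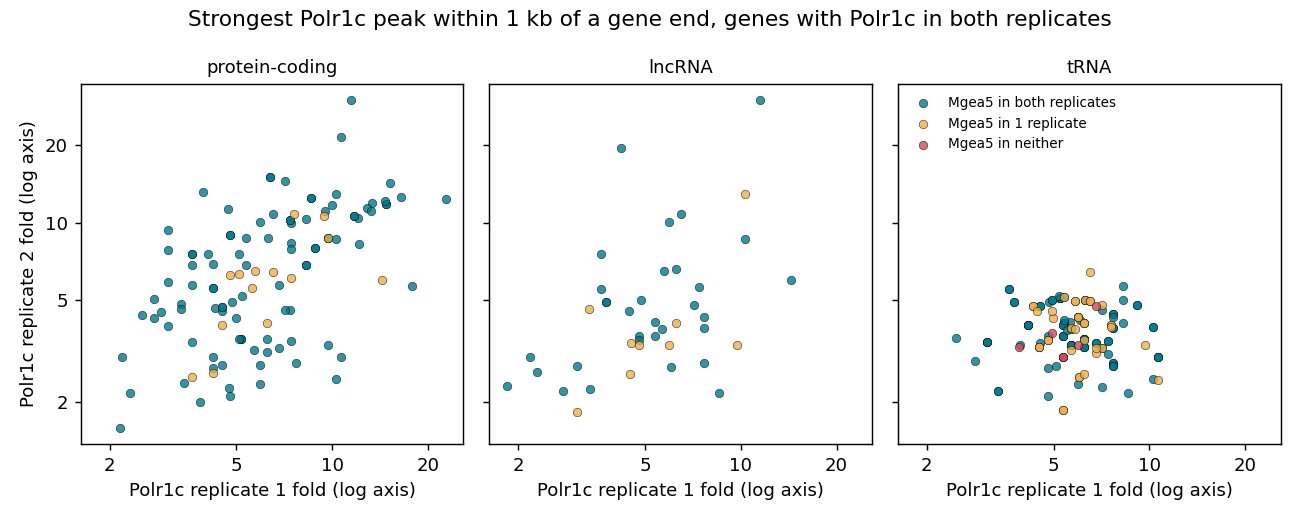
Fold of the strongest Polr1c peak within 1 kb of a gene end in replicate 1 (x, log axis) and replicate 2 (y, log axis), 1 point per gene, for the 114 protein-coding, 41 lncRNA and 136 tRNA genes with Polr1c in both replicates. Colours give Mgea5 in both replicates, 1 or neither. The 3 colours overlap, and tRNA genes reach 6.45 in replicate 2 where protein-coding genes reach 30.1.

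Mgea5 peaks of low q were few at these genes. A Mgea5 peak with a q of at most 0.01 was present in replicate 1 at 3 of the 100 protein-coding genes with both proteins and in replicate 2 at 4. Mgea5 only genes had them at 0.567% and 0.687%. Rgl2, a regulator of Ral GTPases, and Tapbp, tapasin of antigen presentation, shared peaks with Mgea5 folds of 3.40 and 3.97, q values of 2.97e-07 and 2.45e-09, and Polr1c folds of 4.21 and 5.58. Ndufs7, a subunit of mitochondrial complex I, shared its peaks with n-TFgaa3 and n-TNgtt7, with Mgea5 q values of 0.00949 and 0.0065. These 3 genes of the chromosome 10 locus were all that carried both proteins when every peak needed a q of at most 0.01. The q was 1 in both Mgea5 replicates at 65 of the 100 protein-coding genes and at 78 of the 89 tRNA genes with both proteins.

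The peaks of both proteins did not always meet. An Mgea5 peak of each replicate overlapped a Polr1c peak of the window by at least 1 bp at 52 of the 100 protein-coding genes with both proteins (52.0%, 41.8 to 62.1%), 15 of the 32 lncRNA genes and 63 of the 89 tRNA genes. At Cenpu the nearest Mgea5 replicate 2 peak lay 252 bp from the Polr1c peaks, and at Ints10 the replicate 1 peak lay 541 bp away. The strongest Polr1c peaks of the 2 replicates overlapped each other at 260 of the 291 genes, with a median of 36 bp between the summits. Of the 76 protein-coding genes with both proteins that have a start in the promoter table, the summits lay within 250 bp of the nearest one at 34 in replicate 1 (44.7%) and 39 in replicate 2 (51.3%). The table holds more than 1 start for some genes, such as Scamp1 and Prdm15. A peak at a start that the table lacks, as at Eps15, counts as distant.

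Many protein-coding and lncRNA genes with both proteins stood beside a tRNA gene. The contrast with Mgea5 only is in part fixed by the rule. Of 391 tRNA genes, 173 had no Polr1c peak. At the others, the Polr1c peak can lie in the window of a neighbour too, and that neighbour then cannot be Mgea5 only. A tRNA gene lay within 1 kb of an end of 18 of the 100 protein-coding genes with both proteins (18.0%, 11 to 26.9%), of 2 of 10766 with Mgea5 only, and of 0.194% of all. Of the 32 lncRNA genes it was 14 (43.8%), against 8 of 6815 and 0.298% of all. They included Hes7, a repressor of the somite clock on chromosome 11, with Polr1c folds of 7.11 and 4.59, and Prmt5, an arginine methyltransferase, with 4.79 and 2.13. Within the replicate 2 list the median Polr1c fold was 3.29 at the 18 and 8.01 at the other 82, and the highest were 5.17 and 30.1. In replicate 1 the medians were 6.10 and 6.11, and the Mgea5 medians were 1.78 in replicate 1 for each. Without the genes beside tRNA genes, 82 protein-coding and 18 lncRNA genes carried both proteins. Within the calling run alone, where 3154 protein-coding genes carried Mgea5 in both replicates with Polr1c replicate 2, 0.793% had a tRNA gene within 1 kb.

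Genes with both proteins also had other genes close by more often, but the rule is not independent of this. Its window is 1 kb too, so genes with close ends can enter the class through the same peaks. The 221 genes with both proteins stood at 139 loci, and the 100 protein-coding ones at 87. How much of the difference comes from this was not tested. Another gene's end, tRNA genes included, lay within 1 kb at 63.0% of the protein-coding genes with both proteins, 37.8% of those with Mgea5 only and 33.8% of all. The corresponding shares of lncRNA genes were 78.1, 22.6 and 23.0%. The median gene length was 28578.5 bp for protein-coding genes with both proteins, 19873.5 bp with Mgea5 only and 17491 bp for all.

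The promoters of protein-coding genes with both proteins held a median of 21 CpG pairs in 300 bases, against 16 with Mgea5 only and 14 for all. Those with Mgea5 in both replicates and 1 Polr1c list held 23. Motifs were counted on both strands of the same windows. TATAAA was in 10.5% of promoters with both proteins and 13.5% of all protein-coding ones, CCAAT in 32.9 and 39.1%, CCGGAAG in 15.8 and 12.3%, and TGACGTCA in 2.63 and 2.40%. GGTTCGA, the core of the B box of tRNA genes, was in 2 of the 76 (2.63%) and 1.01% of all. A match is a description of the letters and no site.

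The tRNA genes differed by amino acid and by place. Polr1c was in both replicates at 11 of 15 proline genes (73.3%), 13 of 23 arginine genes (56.5%) and 13 of 25 leucine genes (52.0%). It was so at 2 of 56 cysteine genes (3.57%) and 1 of 15 glutamine genes (6.67%). Mgea5 in both replicates with no Polr1c peak was found at 13 of the 56 cysteine and 8 of the 15 glutamine genes, against 17.1% of all tRNA genes. Of the cysteine genes, 38 fell in none of the classes with either protein in both replicates, against 34.5% of all tRNA genes. Of the 52 tRNA genes of chromosome 11, 31 carried Polr1c in both replicates, 16 with both proteins and 5 with Polr1c only. Of the 105 of chromosome 13 it was 32, with 22 and 1. Chromosome 6 had 1 of 53.

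**Figure D4:**
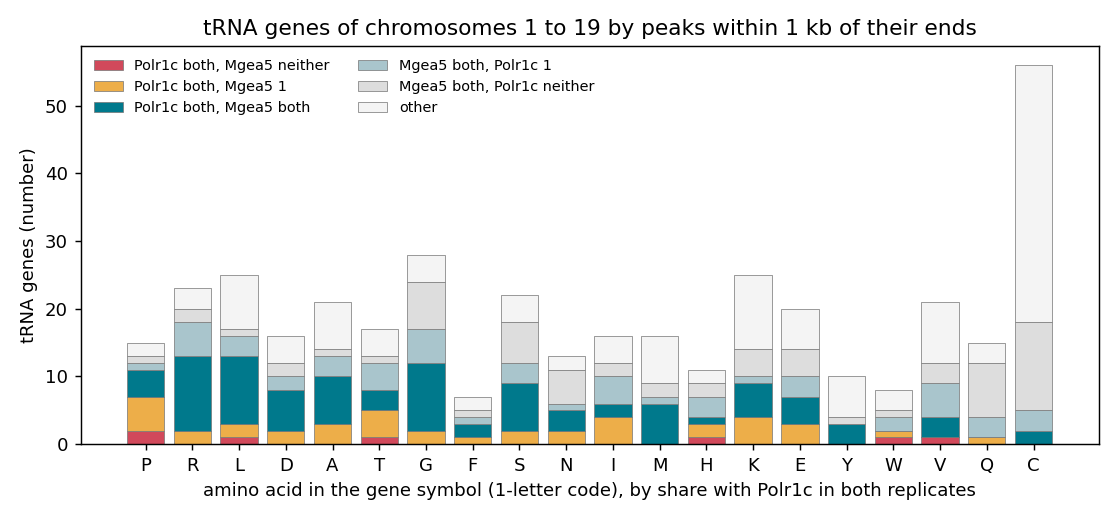
Number of tRNA genes of chromosomes 1 to 19 by the amino acid in their symbol, ordered by the share with Polr1c in both replicates, with colours for the peaks of Polr1c and Mgea5 within 1 kb of their ends. Proline (P), with 11 of 15, stands first, and cysteine (C), with 2 of 56, last. Red marks the 7 genes with Polr1c and no Mgea5 peak.

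Gene lists, some linked to either protein and all chosen with earlier results of these data known, are read against all protein-coding genes. Of these, 52.1% were Mgea5 only, 67.4% had Mgea5 in both replicates and 0.552% had Polr1c in both. Of 24 genes for subunits of RNA polymerases I and III, 18 were Mgea5 only and 1, Polr1d, carried both proteins, with Polr1c folds of 5.18 and 3.52. The gene Polr1c itself was Mgea5 only, with folds of 1.92 and 1.82. Of 21 genes for factors of RNA polymerase III, 12 were Mgea5 only and 0 carried Polr1c in both replicates, counts near the shares of 52.1% and 0.552%. Mgea5 in both replicates was more frequent than the 67.4% of all genes, at 18 of these 21 (85.7%) and 22 of the 24 subunit genes (91.7%). Oga, the gene that encodes Mgea5, carried both proteins, with Polr1c folds of 3.63 and 5.74, a Polr1c q of 1 in replicate 1 and Mgea5 folds of 1.80 and 1.57. Its summits lay 17 bp downstream and 23 bp upstream of the start of the gene. Ogt, which adds the sugar, is on the X chromosome and was not analysed here.

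The SWI/SNF list held 4 genes with both proteins among 22, where 0.484% of all protein-coding genes did. Without Polr1c replicate 1 it held 9, where 3154 of 20665 protein-coding genes did, and with Mgea5 folds of at least 2 or at the q limit it held 0. Whether the list is enriched was not tested, since it was chosen with earlier results of these data known. The 4 were Smarce1, Arid1a with Polr1c folds of 10.0 and 11.7, Smarcd2 with 6.36 and 15.1, and Smarcc2, beside a tRNA gene, with 4.98 and 4.25. Both proteins were carried by 1 of 19 genes of H3K4 methyltransferase complexes (Setd1a), 1 of 14 of Integrator (Ints10) and 1 of 17 Atg genes (Atg13). They were also carried by 1 of 63 replication-dependent histone genes (H4c8) and 1 of 79 ribosomal protein genes (Rps29). Enrichment of these lists was not tested either. Of 36 genes for aminoacyl-tRNA synthetases, which charge tRNAs, 24 were Mgea5 only, 10 had Mgea5 with 1 Polr1c list and 0 carried Polr1c in both replicates. Mgea5 with 1 Polr1c list was found at 14.8% of all protein-coding genes. Mgea5 in both replicates was at 34 of the 36 (94.4%), against 67.4% of all. Of the 11 neural progenitor markers 7 were Mgea5 only, and no marker of progenitors, neurons, astrocytes, oligodendrocytes, microglia or endothelium carried Polr1c in both replicates, which is near the shares of all genes. Peaks of these proteins give no check of the labelled cell type.

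The strongest genes with Mgea5 and no Polr1c peak had Mgea5 folds well above the median. Cpsf1, which recognises the polyadenylation signal, had folds of 4.43 and 3.24. Ncbp2, a subunit of the nuclear cap-binding complex, shared folds of 4.37 and 3.04 with its neighbour 0610012G03Rik. Atg14, printed above, had 3.50 and 3.62. The q values of these peaks were at most 0.01 in both replicates.

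Psmb7, a proteasome subunit, had Mgea5 folds of 3.42 and 3.19, and Fbxw8, an F-box protein of a cullin ubiquitin ligase, 3.57 and 2.88. Ighmbp2, a helicase, and Mrpl21, a protein of the mitochondrial ribosome, shared folds of 3.11 and 3.26. Lrrc47 had 2.68 and 3.63, and Rbsn, an endosomal Rab effector, 3.51 and 2.65. The strongest lncRNA genes of the class were Gm31566, which shared the Lrrc47 peaks, 4933427E11Rik with 2.43 and 3.16, Gm40899 with 3.04 and 1.86, 6030443J06Rik with 2.07 and 2.71, and 4930545L08Rik with 2.40 and 2.26. The tRNA genes of the class were weaker, led by the cysteine tRNA gene n-TCgca35 with 1.90 and 2.07, followed by n-TTagt3, n-TQctg8, n-TAagc12 and n-TVaac2.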

How the data were processed

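The deposited files are peak lists of 6 immunoprecipitation libraries, called by the authors per sample. The tools named are MACS3 3.0.0a5, Bowtie2 2.3.5 and Trim Galore, with build mm10, per the submitters' processing notes. For the peak threshold, the control and reads with several matches, the sources used here give no setting. The Polr1c lists are narrow peaks and the Mgea5 and Panx2 lists broad peaks. The fold ratio in each list is the authors' enrichment over control, and the -log10 of the q-value is the deposited one. A whole-number score column, deposited by the authors and equal to a multiple of -log10 p or q in this layout, was not used. The number of reads is unknown, so no interval from depth is given.

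Peak presence within 1000 bp of either end of a gene was recorded for the RefSeq GRCm38.p6 gene table, and the strongest peak in the window gave the fold. Promoters matched 25748 genes. No test was run: presence is 1 value per list, and the classes are counts. The members and the gene lists were chosen with earlier results of these data known. The genes named are those with Polr1c in both replicates and no Mgea5 list or, for protein-coding and lncRNA genes, 1, the 10 protein-coding, 5 lncRNA and 5 tRNA genes of the highest geometric mean fold in the other classes, and list members with Polr1c in both replicates. Some genes were named after their values were seen: Rgl2, Tapbp, Ndufs7, Hes7, Prmt5 and n-TWcca6. The window search was tested on simulated peaks. Alternatives changed the window, the threshold, the overlap, the unit and the replicates. Work was done in Python 3.11.15 with pandas 2.3.3, numpy 2.4.6 and scipy 1.17.1.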

Additional observations from a re-analysis of the deposited data

How the results depend on the processing

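No paired analysis was possible because the results come from no test. Of 296 recomputed values, 160 stayed within the limits set, 135 moved and 1 changed sign. The 7 genes with Polr1c and no Mgea5 peak became 58 when the peaks had to overlap, 249 with Mgea5 folds of at least 2, 2 when shared peaks were counted once, 39 and 805 with the libraries numbered 1 and 2 alone, 184 at a q of at most 0.01, 0 at 2500 bp, 23 at 500 bp, and 9 to 69 without 1 replicate. The 221 with both proteins became 130, 8, 139, 4580 (libraries numbered 2) and 3 (q), and 245 to 4355 without 1 replicate. The 17648 with Mgea5 only became 355 (fold of at least 2), 27432 (libraries numbered 1) and 50 (q).

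The share with Mgea5 in both replicates, 87.7% at protein-coding genes with Polr1c, was 45.6% with overlapping peaks, 3.51% with Mgea5 folds of at least 2, 61.7% by gene end, 96.2% for libraries numbered 1, 1.37% at the q limit, 94.1% at 2500 bp and 72.0% at 500 bp, and 83.0 to 97.4% without 1 replicate. For lncRNA genes it was 36.6, 2.44, 61.7, 0 (q), 100 (2500 bp) and 60.0% (500 bp), and 76.9 to 90.2% without 1 replicate. For tRNA genes it was 46.3, 2.21, 81.9 and 79.9 (libraries numbered 1 and 2), 2.17 (q), 79.9 (2500 bp) and 46.8% (500 bp), and 63.2 to 82.4% without 1 replicate. The share minus that of all genes was above 0 in 13 of 13 settings for protein-coding and 12 of 12 for tRNA genes. For lncRNA genes it was so in 12 of 13, and was -0.0161 points at the q limit. This difference was not computed with overlapping peaks or with shared peaks counted once. At protein-coding genes it was 1.1 points at the q limit, from 1 of 73 genes. With Mgea5 folds of at least 2 it was 1.63 points, from 4 of 114. The settings reuse the same peaks, so their number adds no separate evidence.

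At protein-coding genes with both proteins the median Mgea5 fold was 3.26 with folds of at least 2, 2.44 at the q limit and 1.81 at 2500 bp. Only 4 such genes were left with folds of at least 2 and 1 at the q limit, so each value at the q limit is that of 1 gene. The median Polr1c fold, 6.48 over both replicates, was 7.14 with overlap, 5.47 with Mgea5 folds of at least 2, 5.49 and 2.75 for libraries numbered 1 and 2, 5.44 at the q limit, 5.78 at 2500 bp, 7.06 without genes near a tRNA gene, an alternative chosen after seeing the data like that by gene end, and 2.75 to 6.55 without 1 replicate. The share beside a tRNA gene was 0.858% for libraries numbered 2, 100% at the q limit (1 of 1 gene) and 0.793 to 19.6% without 1 replicate. The share with overlapping peaks was 100% with Mgea5 folds of at least 2 (4 of 4 genes) and at the q limit (1 of 1). It was 39.8% for libraries numbered 2 and 30.7 to 72.1% without 1 replicate. The cause of these shifts was not tested.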
